A study of Mus musculus with 11 samples.

Results

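The leukocyte integrins described here are 10 genes of the 24421 in the count table: *Itgb2*, its alpha chain partners *Itgal*, *Itgam*, *Itgax* and *Itgad*, the other dendritic cell integrin genes *Itgae*, *Itgb7*, *Itgb1* and *Itgav*, and *Icam1*, a ligand. *Itgb2* was chosen by its measured fall in XBP1ΔDC cDC1s, so its own values are a description with no test. The other 9 genes were chosen by family, and 8 of them passed the filter on low counts and were tested. The exception was *Itgad*. All were measured in bulk RNA-seq of type 1 conventional dendritic cells (cDC1s) sorted from B16 melanoma tumors, in 11 pools of 2 to 4 mice each. Control pools 1 to 3 came from XBP1 fl/fl mice and control pool 4 from XBP1 fl/fl IRE1 fl/fl mice, none with Cre. The 4 XBP1ΔDC pools came from XBP1 fl/fl mice with *Itgax*-Cre, which lack spliced XBP1 (XBP1s) in CD11c-expressing cells. The 3 XBP1ΔDCIRE1truncDC pools came from mice floxed at both loci with *Itgax*-Cre, which lack XBP1s and the IRE1 RNase domain. Cre is driven by the promoter of *Itgax*, one of the genes described here, and acts in CD11c-expressing cells at large, not in cDC1s alone. Antibodies to CD11c and CD11b, the products of *Itgax* and *Itgam*, are among the flow cytometry reagents of the study, and a gate on either would bear on the range of these genes. The part of the sort in their levels was not tested. The control pools carry no Cre, so the presence of the transgene and the loss of XBP1s cannot be told apart in any comparison with control.

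Integrins are surface receptors made of one alpha and one beta chain, which pair in the endoplasmic reticulum before they reach the membrane. The beta chain CD18, encoded by *Itgb2*, pairs with CD11a (*Itgal*), CD11b (*Itgam*), CD11c (*Itgax*) or CD11d (*Itgad*), and CD11a with CD18 forms LFA-1, which binds ICAM-1 on other leukocytes and endothelium. CD103 (*Itgae*) pairs with the beta 7 chain (*Itgb7*) and binds E-cadherin. In cDC1s that lack XBP1s, the RNase of IRE1 is known to cut further mRNAs, a process called regulated IRE1-dependent decay (RIDD).

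The IRE1 RNase cuts *Xbp1* mRNA inside loops that carry the letters CNGCAG, closed by a short stem. The *Itgb2* coding sequence held CTGCAG 5 times. These windows of 30 bases are shown, with the motif in capitals, because *Itgb2* is the member with the large fall, and the windows around both *Xbp1* cut sites stand beside them for comparison. Coordinates are on GRCm38, and all 3 genes' sequences are printed 5′ to 3′ on the mRNA strand.
*Itgb2* exon 5 (chr10:77547245-77547274, plus strand): ggcggggacttgCTGCAGgccctcaacgag
*Itgb2* exon 10 (chr10:77557449-77557478): ctatgactccttCTGCAGtaatggagcatc
*Itgb2* exons 11 and 12 (chr10:77558122-77558139 and chr10:77559479-77559490): ggagtgtggtatCTGCAGgtgtgagtctgg
*Itgb2* exon 13 (chr10:77560343-77560372): ctgtggctcgcaCTGCAGggacaaccacac
*Itgb2* exon 14 (chr10:77561077-77561106): gctggtatgacgCTGCAGactatccctttg
*Itgb7* exon 11 (chr15:102217842-102217871, minus strand): ccaatgtggacgCTGCAGctgcagtgggca
*Xbp1* exon 4 (chr11:5524264-5524293, plus strand): ggtctgctgagtCCGCAGcactcagactat
*Xbp1* exon 4 (chr11:5524290-5524319): ctatgtgcacctCTGCAGcaggtgcaggcc

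Coding sequences within 10% of its length held CTGCAG 2.49 times on average, and 85.8% of these 1511 genes held it. *Itgb7* held it 8 times, *Itgal* 5 times, *Itgb1* 3 times, *Itgad* and *Itgae* 2 times each, and *Itgax*, *Itgam*, *Itgav* and *Icam1* once each. The *Itgb7* window shows a pair of them back to back, with the leading copy in capitals and the copy after it in small letters. CTGCAG reads the same on both strands, and 65.8% of the 21888 protein coding genes had it in their coding sequence.

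The loops were searched by their letters as well. A loop of 7 bases that starts with CNGCAG and is closed by at least 4 base pairs was found at both *Xbp1* sites, with 6 and 7 pairs, and in 7.43% of all coding sequences. It was found in 0 of the 10 members. The *Itgb2* windows in exons 10 and 14, for example, had stems of 2 and 1 pairs. This search reads letters within a coding sequence only, and it says nothing of whether an mRNA is cut.

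*Itgb2* mRNA was at 32.1% of its control level in XBP1ΔDC cDC1s and at 110% of it in XBP1ΔDCIRE1truncDC cDC1s, while no alpha chain partner passed the test in either line. *Itgb2* (ENSMUSG00000000290.13, chr10:77530252-77565708) encodes the beta chain that all CD11 chains need to reach the surface. Its level is given in CPM, a share of the counts of a pool scaled to the same fixed total in all pools after TMM scaling.
The 4 control pools were at 842, 809, 819 and 855 CPM. The XBP1ΔDC pools were at 226, 301, 241 and 301 CPM. The XBP1ΔDCIRE1truncDC pools were at 997, 924 and 828 CPM. Every XBP1ΔDC pool lay below every other pool, and the pools of the other 2 genotypes overlapped. The mean was 831 ± 20.9 CPM (SD, n = 4) in control, 267 ± 39.4 CPM (SD, n = 4) in XBP1ΔDC and 916 ± 84.9 CPM (SD, n = 3) in XBP1ΔDCIRE1truncDC pools. The log2 fold change was -1.64 (standard error 0.0998) for XBP1ΔDC against control, 0.14 (standard error 0.105) for XBP1ΔDCIRE1truncDC against control and 1.78 (standard error 0.105) for XBP1ΔDCIRE1truncDC against XBP1ΔDC. In bulk pools, fewer cells with a transcript and less of it per cell cannot be told apart.

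**Figure D1:**
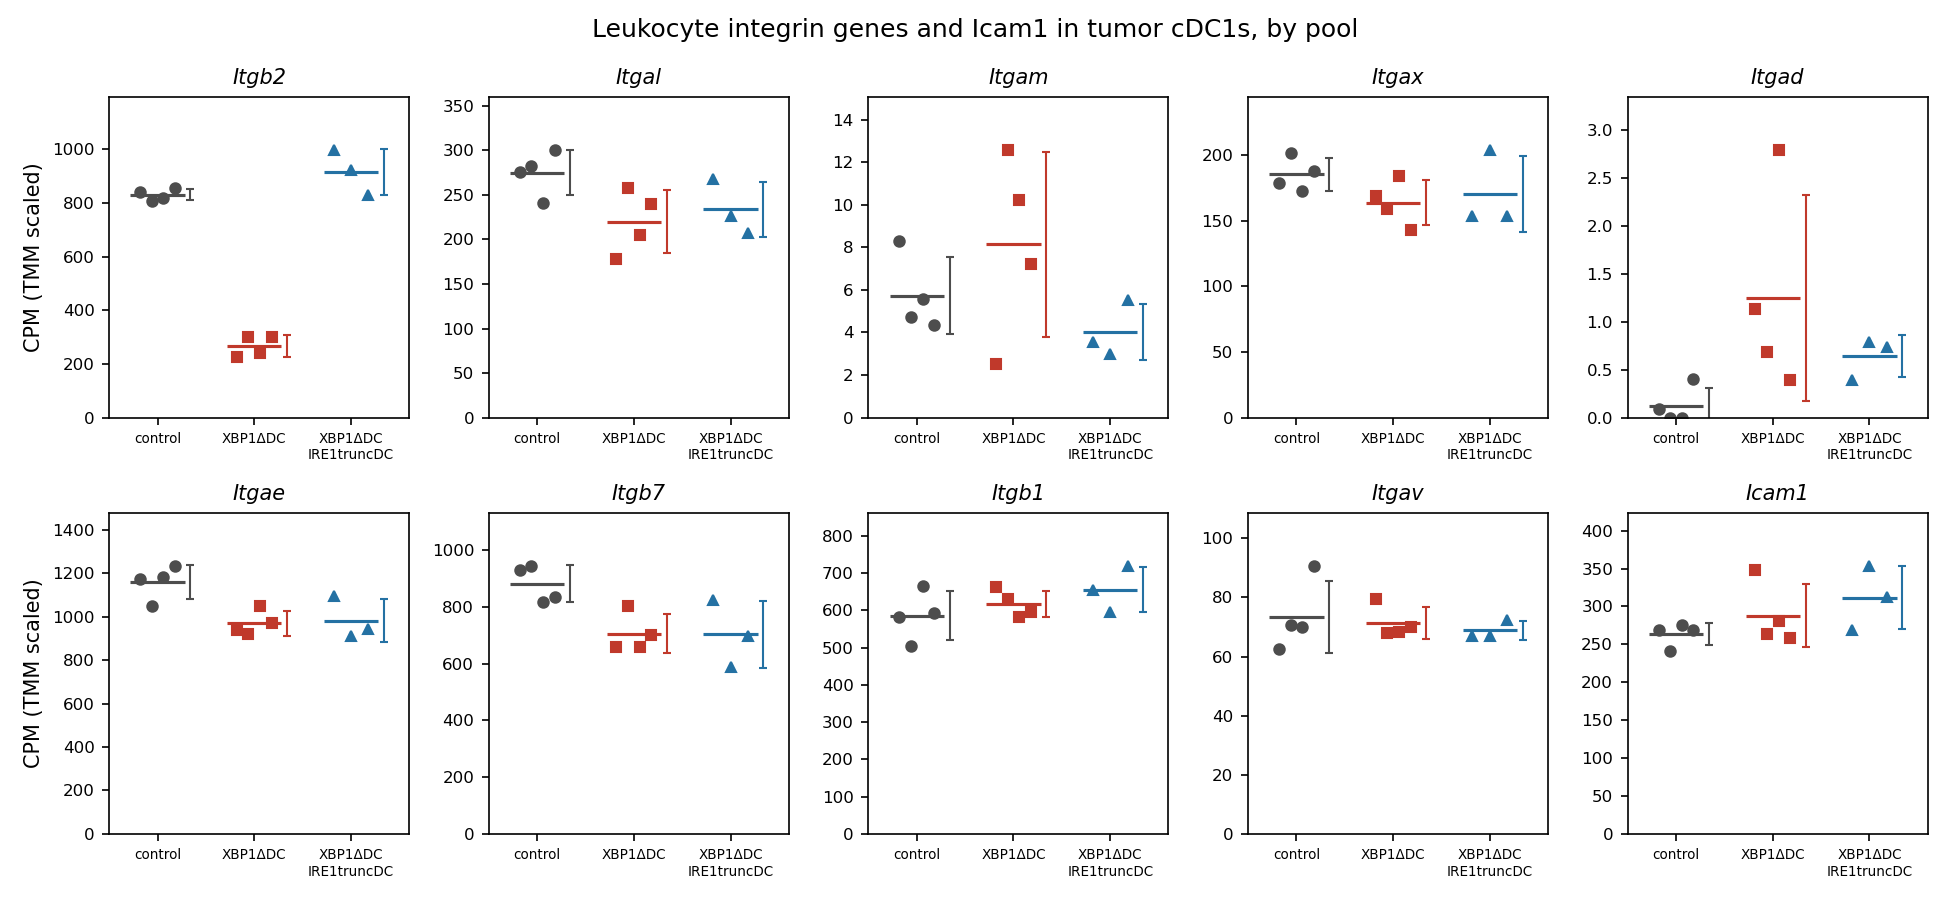
Level of each member in CPM (TMM scaled, vertical axes from 0) in the 4 control, 4 XBP1ΔDC and 3 XBP1ΔDCIRE1truncDC pools. Points are pools, horizontal lines are means and bars are SD, cut at 0 for *Itgad*. *Itgb2* is between 226 and 301 CPM in XBP1ΔDC pools and at 809 CPM or more in all others, and no other member shows a gap of that kind.

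For the members tested, the comparison asks whether the partners followed *Itgb2*. A gene was called at an adjusted p under 0.05 (edgeR quasi-likelihood test, Benjamini-Hochberg over all 10951 genes tested) with a fold change above 1.5. Of the 8 tested members, 0 were called in XBP1ΔDC against control, where 0.493% of all genes were called. At an unadjusted p under 0.05 there were 3 (*Itgal*, *Itgae* and *Itgb7*, all lower), against 7.62% of all genes. The pools of 1 member, *Itgb7*, did not overlap, against 5.31% of all genes. With limma voom and with DESeq2, 0 were called and 3 had an unadjusted p under 0.05 as well. Of the 8, 5 were lower and 3 higher, and their median log2 fold change was -0.11, beside 0.0050 for all genes.

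The 95% intervals of the 8 log2 fold changes, taken from the edgeR standard errors, all lay above the -1.64 of *Itgb2* in XBP1ΔDC against control. *Itgb2* was chosen by this fall, so setting the intervals beside it is a description with no test. The share of all genes with such an interval was not counted. The lowest bounds were -0.58 for *Itgal* and -0.54 for *Itgb7*. In XBP1ΔDCIRE1truncDC against control, 0 of 8 were called (0.21% of all genes), 2 had an unadjusted p under 0.05 (11.2% of all genes), and 0 had pools that did not overlap (10.1% of all genes). There, 6 were lower and 2 higher, with a median log2 fold change of -0.18. The 2 comparisons with control share the control pools. In XBP1ΔDCIRE1truncDC against XBP1ΔDC, 0 of 8 were called (0.0731% of all genes), 1 had an unadjusted p under 0.05 (5.29% of all genes) and 0 had pools that did not overlap (6.07% of all genes). The highest upper bounds were 0.37 for *Itgal* and 0.36 for *Icam1*, below the 1.78 of *Itgb2*, which again is a description with no test.

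**Figure D2:**
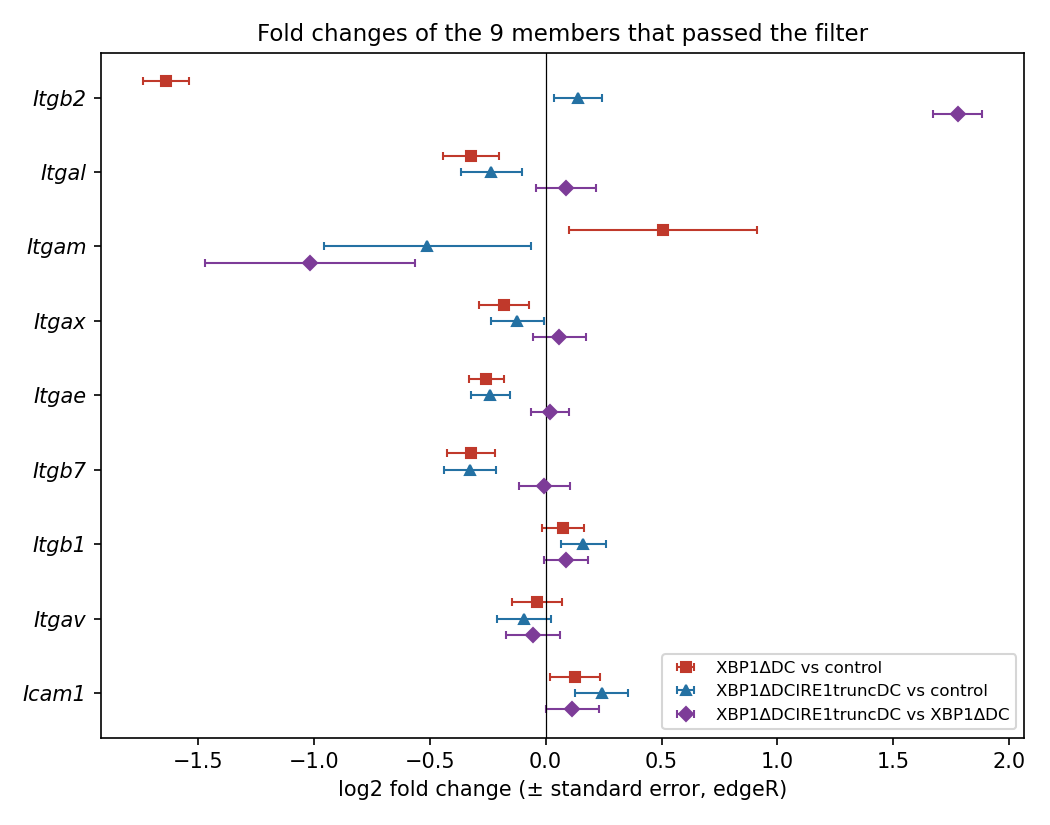
Log2 fold change (horizontal axis) of the 9 members that passed the filter in the 3 comparisons, with edgeR standard errors as bars. *Itgb2* is at -1.64 and 1.78, *Itgam* has the widest bars, and the others lie between -0.33 and 0.24.

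Among the CD11 chains, *Itgal* and *Itgax* made up nearly all partner transcript. *Itgal* (ENSMUSG00000030830.18, chr7:127296260-127335138) encodes CD11a, the alpha chain of LFA-1. Its control pools were at 276, 283, 241 and 301 CPM. The XBP1ΔDC pools were at 178, 258, 205 and 240 CPM. The XBP1ΔDCIRE1truncDC pools were at 268, 227 and 207 CPM. The highest XBP1ΔDC pool, replicate 2, lay inside the control range, and the other 3 lay below it. The log2 fold change was -0.32 (standard error 0.12, 95% interval -0.58 to -0.06, edgeR adjusted p = 0.479) in XBP1ΔDC and -0.23 (standard error 0.13, adjusted p = 0.550) in XBP1ΔDCIRE1truncDC against control, and neither passed the threshold. XBP1ΔDC pools held 80.0% of the control mean of *Itgal*, against 32.1% for *Itgb2*.

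*Itgax* (ENSMUSG00000030789.9, chr7:128129547-128150657) encodes CD11c, a surface marker of dendritic cells. Control pools were at 179, 202, 173 and 188 CPM, and XBP1ΔDC pools at 169, 159, 184 and 143 CPM. XBP1ΔDCIRE1truncDC pools were at 153, 204 and 154 CPM. All 3 genotypes overlapped, and the single highest pool was XBP1ΔDCIRE1truncDC replicate 2. The log2 fold change was -0.18 (95% interval -0.41 to 0.05, edgeR adjusted p = 0.789) in XBP1ΔDC and -0.12 (95% interval -0.37 to 0.13, adjusted p = 0.776) in XBP1ΔDCIRE1truncDC against control. Both Cre lines carry a transgene built on *Itgax* sequence, and whether any of its transcripts count as *Itgax* was not tested. Of the 50-base words of the *Itgax* transcript, 9.61% also occur in *Itgad*.

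*Itgam* (ENSMUSG00000030786.18, chr7:128062640-128118491) encodes CD11b, which marks cDC2s, monocytes and macrophages more than cDC1s. Its counts were low, from 56 to 275 per pool. Control pools were at 8.31, 4.74, 5.56 and 4.33 CPM. XBP1ΔDC pools ranged from 2.54 (replicate 1) to 12.6 CPM (replicate 2), with 10.2 and 7.22 CPM in replicates 3 and 4. XBP1ΔDCIRE1truncDC pools were at 3.56, 2.98 and 5.52 CPM. The spread within XBP1ΔDC, with an SD of 4.33 CPM around a mean of 8.14, covered both other genotypes. For *Itgam* the log2 fold change was 0.51 (standard error 0.406, edgeR adjusted p = 0.894) in XBP1ΔDC and -0.51 (standard error 0.447, adjusted p = 0.753) in XBP1ΔDCIRE1truncDC against control. Between the deletion lines it was -1.02 (standard error 0.451, unadjusted p = 0.0426, adjusted p = 0.931 from edgeR). A same-strand gene model, *Gm49368*, overlaps *Itgam* and shares 72.4% of its 50-base words. It has no row in the count table.

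*Itgad* (ENSMUSG00000070369.13, chr7:128154376-128223816) encodes CD11d, best known from tissue macrophages. It was near absent and did not pass the filter. Control pools held 2, 0, 0 and 9 reads, XBP1ΔDC pools 25, 15, 73 and 10, and XBP1ΔDCIRE1truncDC pools 10, 17 and 17. All Cre-positive pools thus had 10 reads or more and all control pools 9 or fewer, yet in CPM the highest control pool (0.402) lay above the lowest XBP1ΔDC pool (0.388). Without the filter, edgeR put the *Itgad* difference at 3.34 on the log2 scale (standard error 1.12, edgeR adjusted p = 0.486) in XBP1ΔDC and 2.38 (standard error 1.15, adjusted p = 0.547) in XBP1ΔDCIRE1truncDC against control. The gene lies next to *Itgax*, the gene used in the Cre transgene, and any part of the transgene in the *Itgad* reads was not tested. *Itgad* shares 15.2% of its 50-base words with other genes, *Itgax* among them, and its exons overlap genes on the opposite strand. The sources used here do not state whether counting used the strand, so reads from these genes cannot be told apart.

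Monocyte and macrophage markers were checked beside *Itgam* and *Itgad*. Of 12 markers, 11 were tested. In XBP1ΔDC against control 8 were higher and 3 lower, with *C1qc* higher and *Cd68* lower at an unadjusted p under 0.05 (7.62% of all genes), and 0 passed adjustment. Their summed level was 1354 to 1978 CPM in control, 1387 to 1831 CPM in XBP1ΔDC and 1137 to 1914 CPM in XBP1ΔDCIRE1truncDC pools, mostly *Lyz2*, *Ccr2* and *Cd68*. No marker was at 0 in all pools, but *Adgre1*, which encodes the macrophage marker F4/80, was at 7.81 CPM or less throughout. XBP1ΔDC replicate 3, the pool with 73 *Itgad* reads, also had the highest complement levels, with *C1qa* at 13.1, *C1qb* at 22.4 and *C1qc* at 17.1 CPM. Among XBP1ΔDC pools, *Itgam*, *Lyz2* and *Ccr2* were instead highest in replicate 2, at 12.6, 900 and 637 CPM. The part of these markers in the *Itgad* and *Itgam* levels was not tested.

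Levels of different genes were compared per length, as RPKM, which is CPM divided by the length of the exons in kilobases. In control cDC1s the mean was 272 for *Itgb2*, 41.9 for *Itgal*, 38.6 for *Itgax*, 1.14 for *Itgam* and 0.0270 for *Itgad*. The *Itgal* and *Itgax* ranges overlapped. The summed partner level divided by the *Itgb2* level in the same pool was 0.293, 0.325, 0.275 and 0.307 in control pools. In XBP1ΔDC pools it was 0.852, 0.760, 0.915 and 0.688. In XBP1ΔDCIRE1truncDC pools it was 0.225, 0.257 and 0.239. All 11 ratios were below 1 with exon union lengths. With the longest transcript of each gene as its length, XBP1ΔDC replicates 1 and 3 came to 1.01 and 1.08, and the other pools stayed below 1. The ratio contains *Itgb2* itself, so its higher value in XBP1ΔDC restates that fall and was given no test. The summed partner level alone was 81.7 ± 5.74 RPKM in control (SD, n = 4), 69.5 ± 5.23 in XBP1ΔDC (SD, n = 4) and 72.0 ± 6.57 in XBP1ΔDCIRE1truncDC pools (SD, n = 3). Over all pools, *Itgal* made up 43.0% to 55.5% and *Itgax* 43.5% to 55.8% of the sum.

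**Figure D3:**
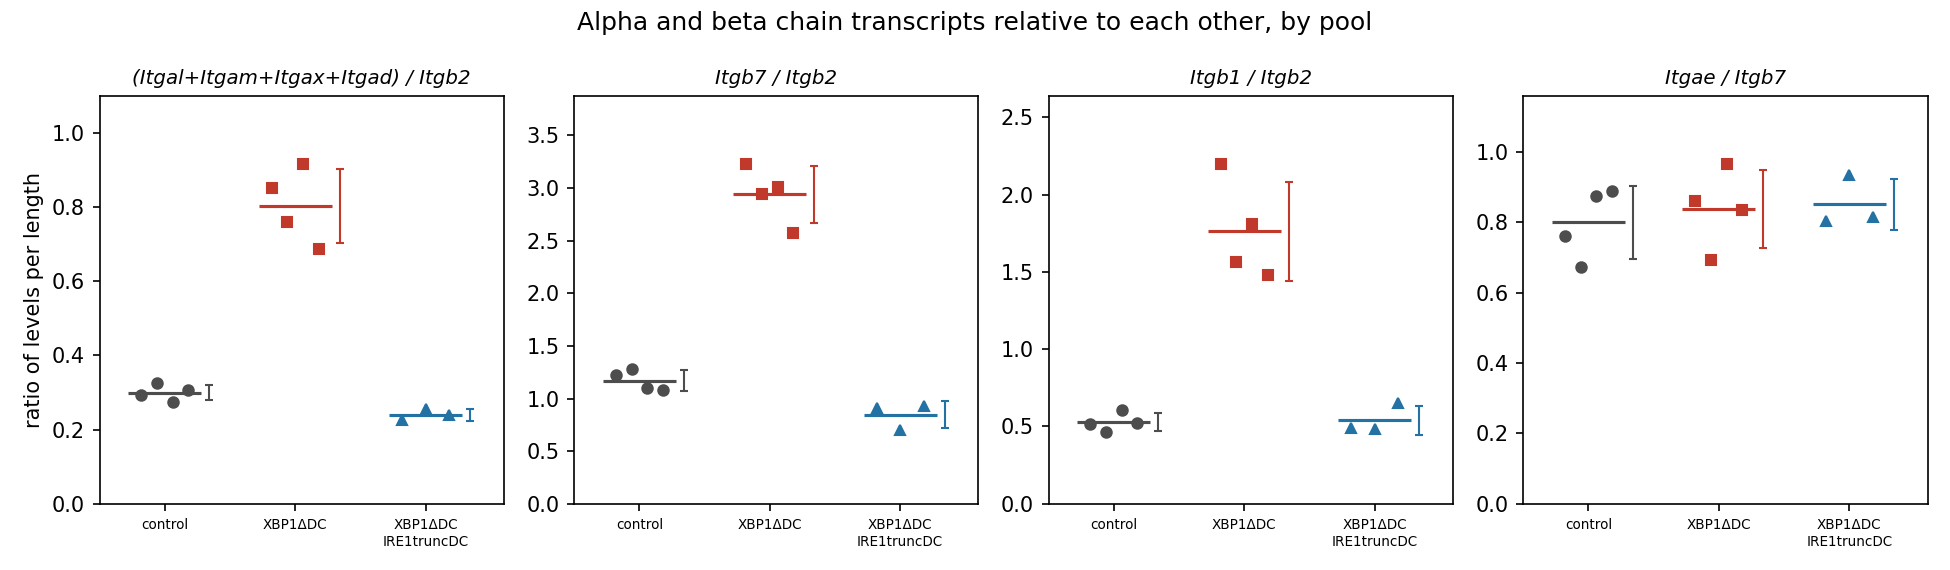
Ratios of levels per length (vertical axes from 0) in each pool: summed CD11 chains over *Itgb2*, *Itgb7* over *Itgb2*, *Itgb1* over *Itgb2* and *Itgae* over *Itgb7*. Points are pools, lines are means and bars are SD. The summed CD11 ratio is 0.688 to 0.915 in XBP1ΔDC and 0.225 to 0.325 in the other pools, whereas the *Itgae* over *Itgb7* ratio overlaps in all genotypes.

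*Itgae* and *Itgb7*, whose products form the CD103 receptor of cDC1s, were both lower by a small amount in both deletion lines, and neither passed adjustment. *Itgae* (ENSMUSG00000005947.11, chr11:73090583-73147446) was at 1172, 1050, 1183 and 1233 CPM in control pools. XBP1ΔDC pools were at 939, 922, 1050 and 971 CPM, and XBP1ΔDCIRE1truncDC pools at 1094, 910 and 943 CPM. Control replicate 2 was the lowest control pool and met the highest XBP1ΔDC pool, replicate 3. The log2 fold change was -0.26 (standard error 0.0764, unadjusted p = 0.0053, adjusted p = 0.254 from edgeR) in XBP1ΔDC and -0.24 (standard error 0.0828, unadjusted p = 0.0131, adjusted p = 0.301 from edgeR) in XBP1ΔDCIRE1truncDC against control. *Itgae* lies on the same chromosome as the floxed genes *Xbp1* and *Ern1*. All pools, control pools included, came from mice floxed at *Xbp1*, and any part of linkage in the *Itgae* level was not tested.

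*Itgb7* (ENSMUSG00000001281.10, chr15:102215995-102231944, minus strand) encodes the beta 7 chain, which also pairs with the alpha 4 chain. Control pools were at 931, 944, 817 and 837 CPM. XBP1ΔDC pools were at 660, 804, 658 and 702 CPM, all below the lowest control pool. XBP1ΔDCIRE1truncDC pools were at 824, 588 and 699 CPM, and replicate 1 lay inside the control range. The log2 fold change was -0.32 (standard error 0.103, 95% interval -0.54 to -0.10, unadjusted p = 0.0083, adjusted p = 0.341 from edgeR) in XBP1ΔDC. It was -0.33 (standard error 0.112, unadjusted p = 0.0121, adjusted p = 0.290 from edgeR) in XBP1ΔDCIRE1truncDC against control. Between the deletion lines it was -0.01 (95% interval -0.25 to 0.24), where *Itgb2* differed by 1.78. The *Itgae* over *Itgb7* ratio per length ran from 0.673 to 0.891 in control, 0.693 to 0.965 in XBP1ΔDC and 0.803 to 0.936 in XBP1ΔDCIRE1truncDC pools, and all 3 ranges overlapped. *Itgb7* stood at 1.08 to 1.29 times *Itgb2* per length in control, 2.57 to 3.22 times in XBP1ΔDC and 0.702 to 0.930 times in XBP1ΔDCIRE1truncDC pools.

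*Itgb1* and *Itgav*, chains of receptors for matrix proteins such as fibronectin and vitronectin, were not called in any comparison. *Itgb1* (ENSMUSG00000025809.15, chr8:128685654-128733200) encodes the beta 1 chain of the VLA receptors. It was at 583, 504, 665 and 594 CPM in control, 663, 630, 582 and 596 CPM in XBP1ΔDC and 654, 596 and 719 CPM in XBP1ΔDCIRE1truncDC pools. All XBP1ΔDC values lay inside the control range, and the single highest pool was XBP1ΔDCIRE1truncDC replicate 3. For *Itgb1* the log2 fold change was 0.07 (95% interval -0.12 to 0.27) in XBP1ΔDC and 0.16 (95% interval -0.05 to 0.37) in XBP1ΔDCIRE1truncDC against control. *Itgav* (ENSMUSG00000027087.11, chr2:83724397-83806916) encodes the alpha V chain. It was at 62.4, 70.8, 69.9 and 90.6 CPM in control, 79.4, 68.0, 68.3 and 70.1 CPM in XBP1ΔDC and 67.1, 66.9 and 72.5 CPM in XBP1ΔDCIRE1truncDC pools. All genotypes overlapped, and control replicate 4, the pool floxed at both loci, was the highest. For *Itgav* the log2 fold change was -0.04 (95% interval -0.27 to 0.20) in XBP1ΔDC. Without control replicate 4 it was 0.08.

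*Icam1* (ENSMUSG00000037405.8, chr9:21015985-21028817) encodes the main ligand of LFA-1, which cells raise upon inflammatory activation. Control pools were at 268, 242, 275 and 269 CPM. XBP1ΔDC pools were at 348, 264, 281 and 259 CPM, and XBP1ΔDCIRE1truncDC pools at 270, 353 and 313 CPM. One pool of each deletion line stood near 350 CPM, and the lowest pools of both lay inside the control range. For *Icam1* the log2 fold change was 0.13 (95% interval -0.10 to 0.36, edgeR adjusted p = 0.908) in XBP1ΔDC and 0.24 (95% interval -0.01 to 0.49, unadjusted p = 0.0554, adjusted p = 0.462 from edgeR) in XBP1ΔDCIRE1truncDC against control. Markers of mature dendritic cells were checked beside it. Of 12 such markers, 11 were higher in XBP1ΔDCIRE1truncDC than in control, 10 with an unadjusted p under 0.05 (11.2% of all genes) and 0 after adjustment, and their median log2 fold change was 0.66. In XBP1ΔDC against control 11 were higher, 1 (*Relb*) with an unadjusted p under 0.05 (7.62% of all genes) and 0 after adjustment. *Cd83*, *Ccr7* and *Fscn1* had the highest levels per length, with log2 fold changes of 0.34, 0.78 and 1.02 in XBP1ΔDCIRE1truncDC against control (edgeR adjusted p = 0.529, 0.346 and 0.238). Their summed level was 4971 to 8079 CPM in control, 5568 to 9752 CPM in XBP1ΔDC and 7528 to 13130 CPM in XBP1ΔDCIRE1truncDC pools, and none was at 0. Their part in the *Icam1* level was not tested.

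Set against all 26 integrin subunit genes by mean level per length in control cDC1s, the 6 highest were members. *Itgb7* led at 318.5 RPKM (295 to 341 over pools). *Itgb2* (265 to 280) and *Itgae* (229 to 269) came next and overlapped in range, followed by *Itgb1* at 144 (123 to 163). *Itgal* (36.7 to 45.8) and *Itgax* (36.0 to 42.1) came after these, with overlapping ranges. *Itga4*, which encodes a partner of both beta 1 and beta 7, was at 10.2, *Itga5* at 7.20, *Itgav* at 6.83 and *Itga6* at 5.43 RPKM, and *Itgav* did not differ from *Itga5* beyond the spread of pools. In XBP1ΔDC, *Itgb2* at 87.5 RPKM (74.0 to 98.5) lay below every *Itgb1* value of that genotype (143 to 162). In XBP1ΔDCIRE1truncDC pools it was at 300.2 RPKM, above the mean of *Itgb7* at 254 but with overlapping ranges.

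**Figure D4:**
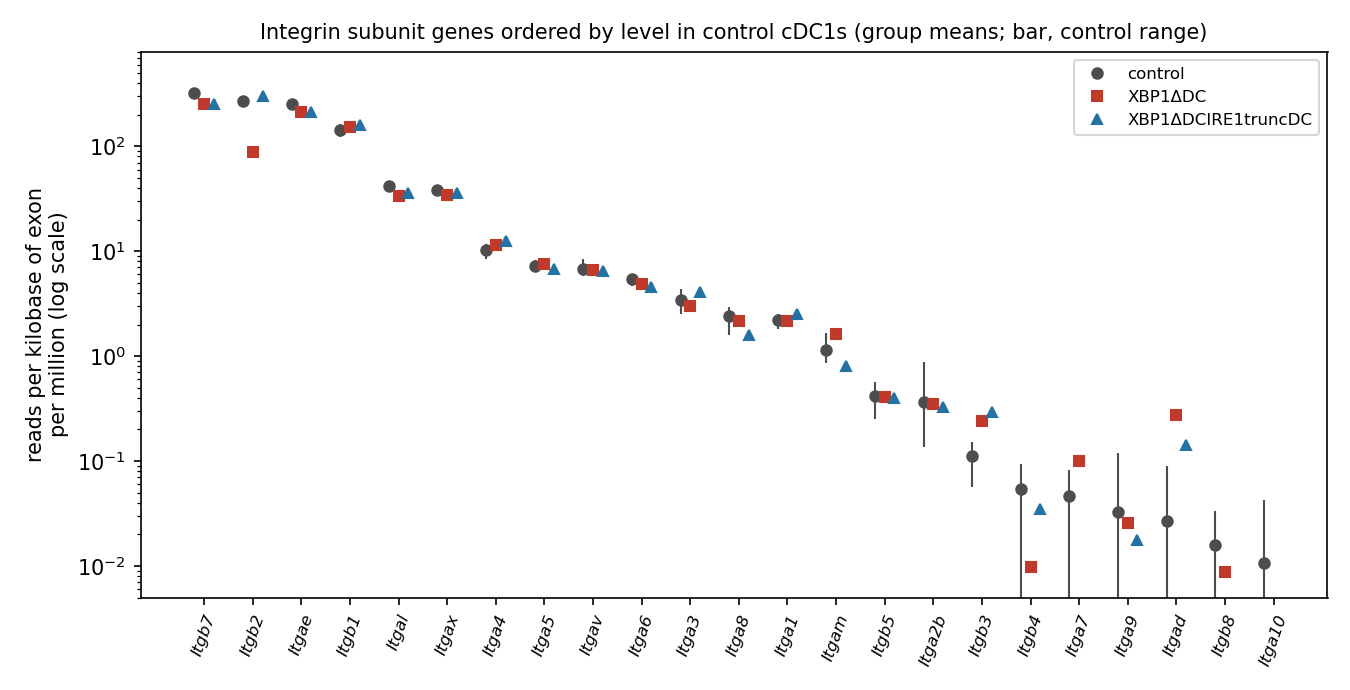
Integrin subunit genes ordered by mean level per length in control (vertical axis, RPKM, log scale). Circles, squares and triangles are the means of control, XBP1ΔDC and XBP1ΔDCIRE1truncDC pools, and lines give the control range, cut at the lower axis limit. Means of 0 are not drawn, and 3 genes at about 0 in control are left out. The XBP1ΔDC mean of *Itgb2* (87.5) is set apart from those of control (272) and XBP1ΔDCIRE1truncDC (300.2).

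The other integrin subunits and ligands gave no call in any of the 3 comparisons. Of 17, 9 were tested, and in XBP1ΔDC against control 6 were lower and 3 higher, 0 had an unadjusted p under 0.05 (7.62% of all genes), and the median log2 fold change was -0.02. *Itga4* had log2 fold changes of 0.15 and 0.30 in XBP1ΔDC and XBP1ΔDCIRE1truncDC against control (edgeR adjusted p = 0.928 and 0.511). *Itgb6*, whose product activates TGF-beta in epithelia, was at 0 in all pools. Of 20 other integrin ligands, 10 were tested, and 4 were lower and 6 higher in XBP1ΔDC. At an unadjusted p under 0.05 (7.62% of all genes), 1 was lower (*Tgfb1*) and 1 higher (*Vcam1*, a ligand of the beta 1 and beta 7 integrins). *Fga*, *Fgb* and *Fgg* (fibrinogen, a ligand of CD11b and CD11c) were at 0 in all pools. *Spp1* (osteopontin) was the most abundant at 75.1 RPKM in control, ahead of *Tgfb1* at 30.5 and *Mfge8* at 3.94. *Tgfb1*, the latent cytokine that alpha V integrins release, differed by -0.22 on the log2 scale in XBP1ΔDC (edgeR adjusted p = 0.361). *Icam2*, another ligand of LFA-1, was at 4.24 CPM in control and 3.29 CPM in XBP1ΔDC.

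Genes that carry signals to and from integrins gave no call in any of the 3 comparisons. Of 31 activation and signalling genes, 30 were tested, 17 were lower and 13 higher in XBP1ΔDC, and the median log2 fold change was -0.01. At an unadjusted p under 0.05 (7.62% of all genes), 2 were lower and 1 higher, and 0 passed adjustment. The most abundant were *Rap1b*, a small GTPase that switches LFA-1 on, at 218 RPKM in control, *Cytip* at 148 and *Parvg* at 115. *Rap1b* differed by 0.08 on the log2 scale in XBP1ΔDC (edgeR adjusted p = 0.932). These 3 genes, *Fyb*, *Sharpin* and *Fermt3*, were picked after their values were seen. *Fermt3* had log2 fold changes of -0.195 in XBP1ΔDC and -0.18 in XBP1ΔDCIRE1truncDC against control (edgeR adjusted p = 0.4365 and 0.384). Its XBP1ΔDC pools did not overlap control (5.31% of all genes), and its XBP1ΔDCIRE1truncDC pools did. *Fyb*, which encodes ADAP, an adaptor that acts in the activation of LFA-1, was at 21.7 to 25.6 CPM in control, 26.9 to 34.3 CPM in XBP1ΔDC and 32.3 to 35.5 CPM in XBP1ΔDCIRE1truncDC pools, with log2 fold changes of 0.43 and 0.52 against control (edgeR adjusted p = 0.121 and 0.0812). *Sharpin*, whose product keeps integrins inactive, was at 69.2 to 86.1 CPM in control, 53.3 to 65.0 CPM in XBP1ΔDC and 87.6 to 90.6 CPM in XBP1ΔDCIRE1truncDC pools. These pools did not overlap in any of the 3 comparisons. The share of all genes without overlap was 5.31% in XBP1ΔDC and 10.1% in XBP1ΔDCIRE1truncDC against control, and 6.07% between the deletion lines. The *Sharpin* log2 fold change was -0.37 in XBP1ΔDC against control and 0.56 between the deletion lines, with adjusted p of 0.0873 and 0.0610 from edgeR.

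Of the 4 genes for folding in the endoplasmic reticulum, 0 were called. *Cnpy3*, which encodes a helper of the chaperone gp96 in the folding of Toll-like receptors, had an adjusted p under 0.05 in XBP1ΔDC (log2 fold change -0.41, standard error 0.0722, edgeR adjusted p = 0.0156) but a fold change below the limit of 1.5. Control pools were at 150, 152, 140 and 149 CPM. XBP1ΔDC pools were at 107, 120, 103 and 114 CPM, below all others, and XBP1ΔDCIRE1truncDC pools at 158, 139 and 147 CPM. Without control replicate 1, 2 or 4 or XBP1ΔDC replicate 1 or 3, its adjusted p was 0.0532 to 0.0664. *Hsp90b1*, which encodes gp96, the chaperone that most integrin chains need to fold, was higher with log2 fold changes of 0.34 and 0.53 in XBP1ΔDC and XBP1ΔDCIRE1truncDC against control (edgeR adjusted p = 0.416 and 0.111). *Calr* and *Canx*, general chaperones of glycoproteins, had log2 fold changes of 0.13 and -0.07 in XBP1ΔDC (adjusted p = 0.889 and 0.932 from edgeR).

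Of 5 transcription factors with known sites at leukocyte integrin promoters, 5 were lower in XBP1ΔDC by at most 0.13 on the log2 scale, and 0 had an unadjusted p under 0.05 (7.62% of all genes). *Spi1*, which encodes PU.1, the myeloid factor that binds the CD18 promoter, was at 486 CPM in control, 468 CPM in XBP1ΔDC and 474 CPM in XBP1ΔDCIRE1truncDC pools, with a log2 fold change of -0.06 in XBP1ΔDC (95% interval -0.18 to 0.07). *Runx3* and *Gabpa* had values of -0.06 and -0.11. Of 7 genes of the TGF-beta pathway, which induces CD103, 4 were lower and 3 higher in XBP1ΔDC and 0 were called. At an unadjusted p under 0.05 (7.62% of all genes) there was 1, *Tgfbr2*, a receptor chain of TGF-beta, with a log2 fold change of -0.24 (edgeR adjusted p = 0.495). Among the most abundant, *Smad4* had a log2 fold change of -0.11, *Ski* of 0.09 and *Smad2* of 0.06.

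Over the 11 pools, the 5 genes whose log2 CPM was most like that of *Itgb2* were *Slc1a5* (Pearson r = 0.985), *Fcrla* (r = 0.973), *Cnpy3* (r = 0.966), *Fam134c* (r = 0.961) and *Bcat2* (r = 0.953). They were picked by that r out of the genes tested, so its size follows from the choice and was given no test. The values describe pools that share libraries and fall into separate groups. *Fcrla*, an Fc receptor-like gene, was at 53.1 to 67.7 CPM in control, 13.4 to 20.1 CPM in XBP1ΔDC and 61.4 to 101 CPM in XBP1ΔDCIRE1truncDC pools. *Slc1a5*, a neutral amino acid transporter, was at 184 to 208, 101 to 111 and 201 to 215 CPM in the same order.

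The pools held 21089065 to 26843486 counts each. Markers of the labelled cell type were present in every pool, with *Irf8* at 3618 to 4491 CPM, *Xcr1* at 751 to 989, *Clec9a* at 123 to 165 and *Batf3* at 65.5 to 84.5 CPM over all pools, and the 11 cDC1 markers summed to 12960 to 14210 CPM in control, 11080 to 12360 CPM in XBP1ΔDC and 11870 to 12800 CPM in XBP1ΔDCIRE1truncDC pools. Both deletion lines thus lay below control in the sum, to which *Naaa* added a mean of 4141 CPM in control, 2905 CPM in XBP1ΔDC and 3297 CPM in XBP1ΔDCIRE1truncDC pools. The means of *Xcr1* were 846, 850 and 870.5 CPM in the same order. Of the 11 markers, 7 were lower and 4 higher in XBP1ΔDC, and 6 lower and 5 higher in XBP1ΔDCIRE1truncDC, against control. *Cd24a* and *Zbtb46* had log2 fold changes of -0.23 and 0.30 in XBP1ΔDCIRE1truncDC against control (edgeR adjusted p = 0.274 and 0.232). In that comparison 3 of the 11 markers, *Cd24a*, *Zbtb46* and *Naaa*, had pools that did not overlap, against 10.1% of all genes. Of these 11, *Naaa*, a lysosomal amidase, fell in both deletion lines (log2 fold change -0.51 and -0.33, edgeR adjusted p = 0.000495 and 0.0396), and without any 1 of the 7 pools in the second comparison that p ran from 0.0578 to 0.126. Of the markers of other cells, *Retnlg* (neutrophils) and *Clec4a4* (cDC2s) were at 0 in all pools. The neutrophil markers summed to at most 1.57 CPM and the cDC2 markers to at most 68.6 CPM. Melanoma markers summed to 8.22 to 58.5 CPM in control, 10.7 to 63.1 CPM in XBP1ΔDC and 6.17 to 8.13 CPM in XBP1ΔDCIRE1truncDC pools. *Xbp1* was at 244 to 271 CPM in control and fell to 130 to 165 CPM in XBP1ΔDC (log2 fold change -0.74, edgeR adjusted p = 0.00167), and was at 179 to 236 CPM in XBP1ΔDCIRE1truncDC pools (adjusted p = 0.324). *Ern1*, which encodes IRE1, was at 9.82 to 19.0 CPM in control and 9.74 to 15.6 CPM in XBP1ΔDC, and its log2 fold change was 0.62 in XBP1ΔDCIRE1truncDC against control (edgeR adjusted p = 0.322). Gene counts include exons that remain after deletion, so they do not check the truncation of IRE1.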

How the data were processed

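The deposited table held raw counts per gene for the 11 pools, made by the authors with FastQC 0.11.8, Trimmomatic 0.39, STAR 2.7.3a (mm10, per the labels) and HTSeqCount, from libraries amplified by SMART-seq and read on 1 end. Amplified copies are not resolved in these counts, and whether counting used the strand is not given in the sources used here. A second table of log2 values was not used. Genes with more than 1 CPM in at least 4 pools (10951 of 24421) were fitted with edgeR 4.0.16 (TMM scaling, quasi-likelihood test, all 3 groups in 1 fit, no covariate) in R 4.3.3, with Benjamini-Hochberg adjustment. Depth was 21089065 to 26843486 counts per pool. RPKM values use the union of exons in GENCODE vM21 (GRCm38), which also gave the coordinates and transcript sequences. Intervals are edgeR log2 fold changes with standard errors at 12.68 degrees of freedom, residual and prior together. Each standard error is the size of the log2 fold change divided by the square root of the edgeR F statistic. limma 3.58.1 (voom) and DESeq2 1.42.0, other scalings, other filters, the replicate number as a block and leaving out each pool were tried. The edgeR, voom and DESeq2 tests were tried on simulated counts for both comparisons with control, but not for the comparison between the deletion lines. Python 3.11.15 with pandas 2.3.3 and matplotlib 3.10.9 made the summaries and plots.

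The members and gene lists were chosen with earlier results of these data known. Genes named were the members, *Xbp1* and *Ern1*, the 5 genes most like *Itgb2*, and from each list those with an adjusted p under 0.05 and the 3 with the highest level per length. For markers of cDC2s, neutrophils and melanoma the sums stand in for the genes of highest level. The cDC1 markers were named to check the label. Other markers, *Zbtb46*, *Sharpin*, *Fyb*, *Fermt3*, *Tgfbr2*, *Icam2*, *Vcam1* and the genes printed at 0 are named beside their counts and were picked after their values were seen. The numbers of the replicates were not used to pair the samples in the main fit. Groups came from the labelled genotype, and pools are separate pools of mice.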

Additional observations from a re-analysis of the deposited data

How the results depend on the processing

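Of the 8 tested members, 0 were called under each alternative run in each comparison. The count over all genes in XBP1ΔDC against control was 54 and became 98 with no fold change limit, and 37 to 49 without single pools. In XBP1ΔDCIRE1truncDC against control it was 23, and became 95 with DESeq2, 15 with only the 2 groups compared, 39 with no fold change limit, 11 with the replicate block, and 12 to 23 without single pools. Between the deletion lines it was 8, and became 36 with DESeq2, 3 with the replicate block and 4 to 10 without single pools. The replicate block gave 40 calls in XBP1ΔDC against control, and with it *Cnpy3* had an adjusted p of 0.0681 (edgeR). Same-numbered pools had mean correlations of 0.098, 0.0035 and -0.2206 in the 3 pairs of groups, and differently numbered pools -0.033, -0.0012 and 0.074. The numbers were taken as names, though so few pairs cannot exclude a pairing. At an unadjusted p under 0.05, the count of members between the deletion lines was 1 (*Itgam*), and became 0 with voom, the replicate block, only the 2 groups compared, without XBP1ΔDC replicate 2, 3 or 4 or XBP1ΔDCIRE1truncDC replicate 1 or 2, and 2 without XBP1ΔDC replicate 1. In XBP1ΔDCIRE1truncDC against control that count was 2, and became 4 without XBP1ΔDCIRE1truncDC replicate 1. There it was 3 with DESeq2, with only the 2 groups compared, without control replicate 3, and with no filter (of 9 members). In XBP1ΔDC against control the count was 3, and became 4 of 9 with no filter. Without control replicate 4 or XBP1ΔDC replicate 3 it was 2.

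Small log2 fold changes turned sign as follows, and the cause was not tested. Without single pools, values between the deletion lines ran from -0.093 to 0.13 for *Itgax*, -0.021 to 0.18 for *Itgal*, -0.066 to 0.068 for *Itgae*, -0.13 to 0.11 for *Itgb7* and -0.093 to 0.00054 for *Itgav*. Against control, *Itgav* ran from -0.11 to 0.078 in XBP1ΔDC and -0.16 to 0.024 in XBP1ΔDCIRE1truncDC pools, and *Cnpy3* from -0.043 to 0.048 in the latter. Between the deletion lines *Itgae* was at -0.017 with library size scaling and -0.0071 with upper quartile scaling, and *Cnpy3* in XBP1ΔDCIRE1truncDC against control at -0.018 with upper quartile scaling. With the longest transcript in place of the exon union, the summed partner ratio was 0.357 in control, 0.953 in XBP1ΔDC and 0.285 in XBP1ΔDCIRE1truncDC pools. Whole transcripts and stems of at least 3 pairs, added after seeing the data, gave 0 members with a closed loop, against 11.4% of all genes (whole transcript, 4 pairs), 17.9% (coding sequence, 3 pairs) and 25.8% (whole transcript, 3 pairs).

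With 3 or 4 pools a group and their spread, the differences of *Itgal* and *Itgb7* were not separated from 0 after adjustment, and *Itgam* and *Itgad* rest on at most 275 and 73 reads per pool.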
